A study of Mus musculus with 8 samples.

Results

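The Notch ligand Jag1 and 8 genes that act with it were followed through white quadriceps muscle with and without Acot2. The 9 genes, of 54091 in the deposited table, were chosen by name: the ligands Jag1, Jag2 and Dll4, the receptors Notch1, Notch2 and Notch3, and the target genes Hes1, Hey1 and Heyl. Jag1 was picked because its level was lower in the Acot2-deleted group in an earlier look at the same libraries. The differences of the 9 genes between the groups are therefore given as descriptions, with no test. The question asked of the data was whether the target genes follow Jag1.

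RNA was sequenced from stranded libraries of 8 male mice aged 11 to 14 weeks, all fed the regular chow Purina 5001, with the quadriceps taken in the morning. The white quadriceps is a fast, glycolytic muscle. The 4 control animals had the genotype Loxp/Loxp, in which no Cre is named. The 4 Acot2 mKO animals carried CKM Cre, a recombinase driven by the promoter of muscle creatine kinase, which is active in muscle fibres, and lacked Acot2 in muscle. The recombinase and the loss of Acot2 came together, so their effects cannot be told apart here. Acot2 encodes a mitochondrial enzyme that splits acyl-CoA into free fatty acid and CoA.

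Notch signalling passes between touching cells. A ligand of the Jagged or Delta-like family on one cell binds a Notch receptor on its neighbour, the receptor is cut, and its inner part enters the nucleus, joins the DNA-binding protein Rbpj and switches on genes of the Hes and Hey families, which encode repressors of transcription. In skeletal muscle the pathway is known for keeping satellite cells, the stem cells of the fibres, at rest, and for shaping arteries and the mural cells around small vessels.

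Each value below is a normalized read, the read count of a gene in a library divided by a factor for that library, unless a log2 scale is named. Recovered totals lay between 30415432 and 48834289 reads per library. Acot2 had 149 to 251 normalized reads in the controls against 42.8 to 53.7 in the Acot2 mKO group, a log2 difference of -2.13 (SE 0.18, limma adjusted p = 0.000962, exact two-sided permutation p = 0.0286 over 70 relabellings), in the direction of the labels. Besides Acot2, only Kbtbd12 passed in the limma test over 13638 genes (2 genes, 0.0147% of those tested, 1 of them higher and 1 lower, 0.00733% each). Myh4, the myosin of the fastest fibres, had 2521600 to 3400900 normalized reads per library. The libraries that stood apart were control 2 and 3, high in fat-cell genes, and Acot2 mKO 3 and 4, high in slow-fibre genes. Each library carries its own animal number.

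All 9 genes were expressed in white quadriceps. Divided by the exon length of each gene, Notch3, the receptor of mural cells, had the highest level, 142 ± 20.2 normalized reads per kilobase of exon (mean ± SD over all 8 libraries), and Hey1 the lowest, 17.8 ± 4.24. In between lay Hes1 with 126 ± 24.6, Jag2 with 95.2 ± 5.92, Notch2 with 93.6 ± 7.14, Jag1 with 80.3 ± 11.3, Heyl with 45.3 ± 5.33, Dll4 with 43.7 ± 5.24 and Notch1 with 43.0 ± 6.37. For comparison, the median of the 13186 tested genes with a known length was 71.6 reads per kilobase, so 5 of the 9 genes lay above it and 4 below. Neighbours in this order separated over all libraries at 2 steps, between Jag1 and Heyl and between Notch1 and Hey1. Hes1 stood above Jag2 in 8 of 8 libraries although the ranges overlapped, and Notch3 above Hes1 in 5 of 8. Heyl, Dll4 and Notch1 could not be ordered, since each exceeded the next in only 5 of 8 libraries. Dll1 had 31.1 ± 7.36 reads per kilobase, while Dll3 was at 0 in all libraries and Dlk1, Dlk2, Hes5 and Hes7 were too low to be tested.

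**Figure D1:**
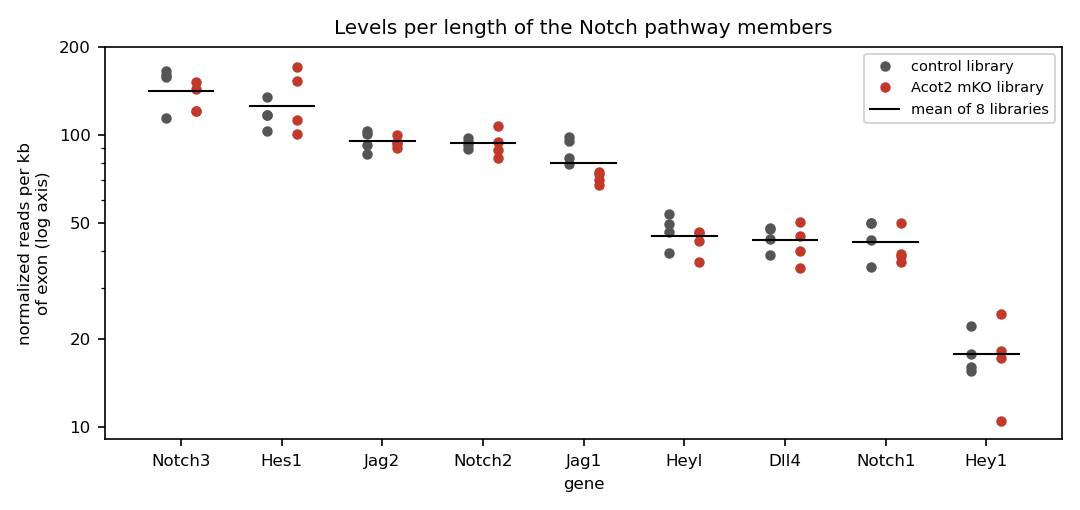
Level of each of the 9 Notch genes per length (vertical axis, normalized reads per kilobase of exon, log axis), with 1 point per library, control in grey and Acot2 mKO in red, and a line at the mean of the 8 libraries. Notch3 and Hes1 lead with means of 142 and 126, and Hey1 lies lowest with 17.8.

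Of the 3 ligands, Jag1 alone had groups that did not overlap. Jag1 encodes a membrane-bound ligand with a prominent place in arteries, and lies at chr2:137081456-137116644 on the minus strand of GRCm38. In control libraries 1 to 4 it had 572, 554, 465 and 487 normalized reads. In Acot2 mKO libraries 1 to 4 it had 410, 394, 427 and 435. Every Acot2 mKO library lay below every control library, with control 3 the nearest to the other group. The means were 519.6 ± 51.6 and 416 ± 18.4 (SD, n = 4 each), a ratio of 0.801 and a log2 difference of -0.31 (SE 0.088). The spread between control animals was the wider, and the gap between the lowest control and the highest Acot2 mKO library was smaller than the range of the control group. Behind these values stood 322 to 614 reads per library, and the counting error at the lowest was 5.57%. The log2 difference was -0.36 without Acot2 mKO 3 and 4 and -0.34 without control 2 and 3. Among all genes tested, 136 (0.997%) had every Acot2 mKO library below every control library (262, or 1.92%, did not overlap in either direction). Jag1 is the only one of the 9 among them, and nothing is read from this, since it was chosen for that difference.

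The stretch before the start of Jag1 is shown because target repressors of the pathway are known to bind class C sites (letters CACGCG), and this promoter holds 2 of them within 250 bases, as matches of letters and not as sites shown to be bound. Sequences are from RefSeq on GRCm38.p6, whose promoter table held 6 of the 9 genes (not Hes1, Hey1 and Heyl), and are written 5′ to 3′ in the direction of the gene, with the class C letters, or CGCGTG where they lie on the opposite strand, in capitals. For Jag1 the bases chr2:137116645-137116770 (minus strand) are printed, and for Dll4, the next ligand with such a match, chr2:119325534-119325783 (plus strand).
Jag1: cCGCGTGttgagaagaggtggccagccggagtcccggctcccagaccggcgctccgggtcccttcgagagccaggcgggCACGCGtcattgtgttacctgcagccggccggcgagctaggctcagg
Dll4: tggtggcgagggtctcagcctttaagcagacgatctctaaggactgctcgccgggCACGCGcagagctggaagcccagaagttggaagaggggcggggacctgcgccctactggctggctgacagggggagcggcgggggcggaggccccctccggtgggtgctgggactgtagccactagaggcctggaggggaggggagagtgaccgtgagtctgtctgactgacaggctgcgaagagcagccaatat

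The first letters of the matches in Jag1 lie 249 and 171 bases before the RefSeq start, and the match in Dll4 lies 195 bases before it. Of the 6 promoters, 3 held CACGCG on either strand (Jag1, Dll4 and Notch2), against 7.62% of all 32851 promoters of 250 bases. The letters TGGGAA, the core bound by Rbpj, were in 0 of the 6 and in 21.6% of all promoters. The E-box CACGTG, which shares its first 4 letters with the class C site, was in 0 of the 6 and in 6.02% of all. The GC box GGGCGG was in 5 of the 6, all but Jag1, and in 32.7% of all. Base composition differed as well: 57.2% of the bases in the Jag1 window were G or C, the lowest of the 6, and 87.2% in the Jag2 window, the highest. The class C and GC box letters were picked after the sequences had been looked at.

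Jag2, the second Jagged ligand (chr12:112907819-112929776, minus strand), showed no such gap. It had 600, 703, 644 and 721 normalized reads in control libraries and 699, 660, 629 and 647 in Acot2 mKO libraries. The Acot2 mKO libraries all fell inside the control range, with means of 667 ± 55.2 and 659 ± 29.5 and a log2 difference of -0.015 (SE 0.078). Put over Jag2 per exon length, Jag1 stood at 0.938 ± 0.145 in control and 0.757 ± 0.0583 in Acot2 mKO libraries. This ratio is from 1.14 down to 0.808 in control and from 0.811 down to 0.701 in Acot2 mKO, so the groups just overlapped, at control 4 and Acot2 mKO 3.

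Dll4, a Delta-like ligand made mainly by endothelial cells (chr2:119325784-119335962, plus strand), was lower in level than both Jagged genes. It had 184, 185, 149.95 and 169.9 normalized reads in control libraries and 155, 174, 135 and 194 in Acot2 mKO libraries. The highest and the lowest of all 8 values were both from Acot2 mKO animals. The means were 172 ± 16.3 and 164 ± 25.4, with a log2 difference of -0.075 (SE 0.14), and without Acot2 mKO 3 it was 0.016.

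The receptors overlapped between the groups in every case. Notch1, a receptor of endothelium and satellite cells (chr2:26457903-26516663, minus strand), had 623, 712, 503 and 714 normalized reads in control libraries and 549.7, 558, 522 and 713 in Acot2 mKO libraries. Both extremes came from controls, and 3 of the 4 Acot2 mKO libraries sat close together near the low end. Means were 638 ± 99.4 and 586 ± 86.5, a log2 difference of -0.12 (SE 0.13) that was -0.23 without control 3 and -0.061 without control 4.

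Notch2, which acts beside Notch1 and Notch3 in many tissues (chr3:98013527-98150361, plus strand), was the steadiest receptor in controls. Its control values were 996, 1019.5, 964 and 1054, and its Acot2 mKO values 1021, 901, 956 and 1159. The Acot2 mKO libraries spread to both sides of the control range. The means were 1008 ± 38.2 and 1009 ± 111, and the log2 difference was -0.0043 (SE 0.081).

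Notch3, the receptor known from the smooth muscle and pericytes of vessels (chr17:32120820-32166852, minus strand), had 1294, 1337, 926 and 1275 normalized reads in control libraries. The Acot2 mKO libraries had 977, 1163, 977 and 1227.5. Control 3 lay below all other libraries of both groups, while the other 3 controls lay above all Acot2 mKO libraries. The means were 1208 ± 190 and 1086 ± 128, and the log2 difference of -0.15 (SE 0.12) was -0.27 without control 3. Notch3 over Notch1 per exon length was 3.34 ± 0.225 in control and 3.28 ± 0.282 in Acot2 mKO libraries.

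None of the 3 targets had groups without overlap, which 1.92% of all genes tested had in either direction. Overlap alone does not tell whether a target was lower to the same degree as Jag1. The 95% confidence intervals of the log2 differences ran from -0.63 to 0.49 for Hey1 and from -0.40 to 0.15 for Heyl. Both contain the -0.31 of Jag1, while that of Hes1, from -0.20 to 0.52, does not. Jag1 was chosen for its low level, so this is a description and no test. Hes1, a repressor that Notch switches on directly in many cell types (chr16:30064384-30067796, plus strand), had 239, 210.4, 239 and 274 normalized reads in control libraries. In Acot2 mKO libraries it had 205, 229.9, 347 and 311. The values in Acot2 mKO 3 and 4 were above every control, and Acot2 mKO 1 was below every control. The means were 241 ± 25.9 and 273 ± 66.8, a log2 difference of 0.16 (SE 0.16), the one value above 0 among the 9 genes. Without Acot2 mKO 3 and 4 it was -0.14. These are the 2 libraries with the highest summed level of 6 slow-fibre genes, 4393 and 12920 normalized reads. The sums were 85.9 and 372 in Acot2 mKO 1 and 2 and 97.4 to 768 in control. The within-group correlation of Hes1 with the slow-fibre list is given below. The part of slow fibres in the Hes1 difference between the groups was not tested.

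Hey1, a target known from endothelium and satellite cells (chr3:8663359-8667256, minus strand), was the lowest of the 9, with 28 to 84 reads per library and a counting error of 18.9% at the lowest. It had 72.4, 52.6, 58.3 and 50.9 normalized reads in control libraries and 56.4, 34.2, 79.9 and 59.5 in Acot2 mKO libraries. The Acot2 mKO group held both the highest and the lowest value. The means were 58.5 ± 9.78 and 57.5 ± 18.7, and the log2 difference of -0.072 (SE 0.25) was 0.15 without Acot2 mKO 2, 0.033 without control 1 and -0.39 without Acot2 mKO 3 and 4. The SE of Hey1 was thus nearly as large as the difference of Jag1 itself.

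Heyl, the target most tied to vascular smooth muscle (chr4:123233556-123249875, plus strand), had 238, 253, 202 and 274 normalized reads in control libraries and 189, 236, 222 and 239 in Acot2 mKO libraries. Control 4 was the highest and Acot2 mKO 1 the lowest, and the 2 ranges overlapped from 202 to 239. The means were 242 ± 30.4 and 221 ± 23.0, and the log2 difference of -0.12 (SE 0.12) was -0.050 without Acot2 mKO 1 and -0.21 without control 3. Heyl over Notch3 per exon length was 0.319 ± 0.0272 in the controls and 0.323 ± 0.0246 in Acot2 mKO libraries.

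**Figure D2:**
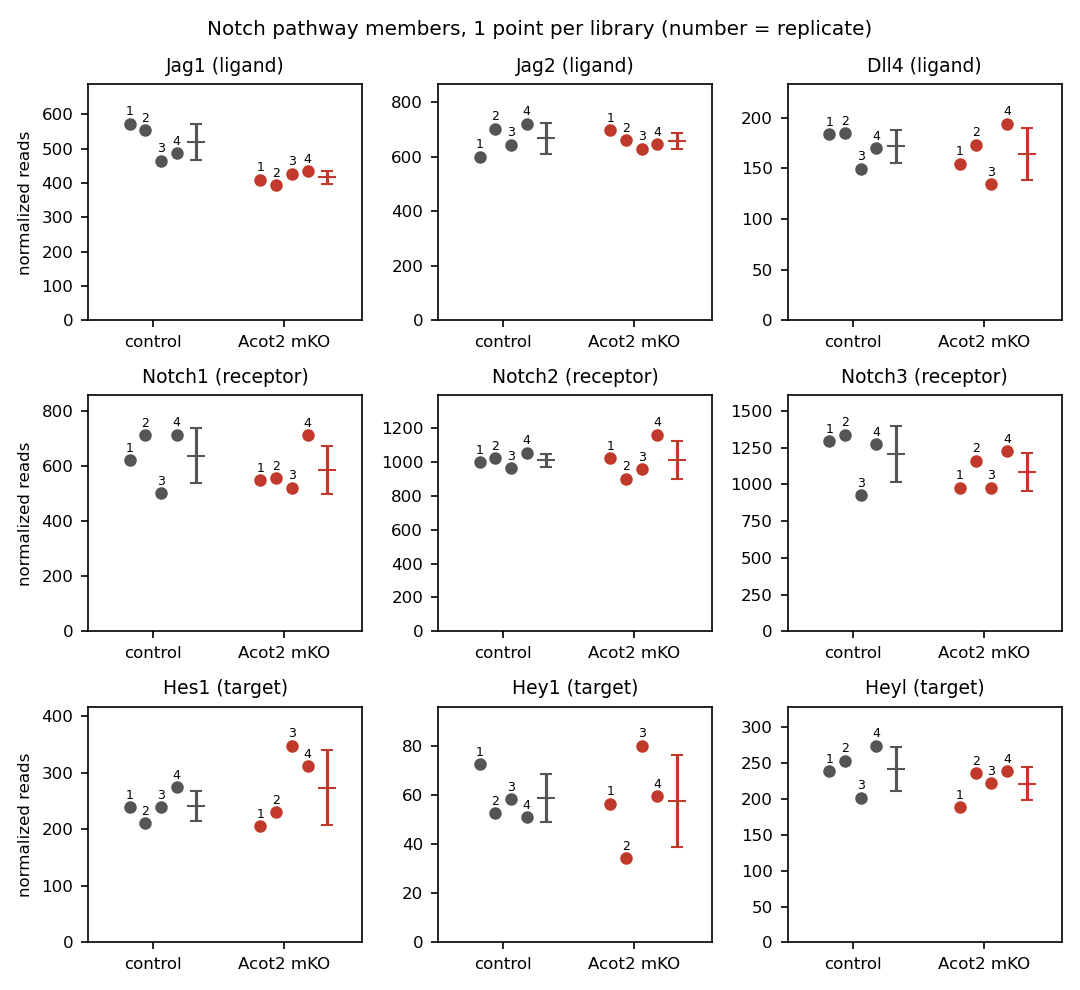
Normalized reads of the 9 Notch genes (vertical axes, each from 0), with 1 numbered point per library, control in grey and Acot2 mKO in red, and the mean with a bar of 1 SD beside each group. Jag1 is the gene whose groups do not overlap, 465 to 572 against 394 to 435.

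Jag1 was chosen for its low level, so its sign was fixed by that choice. Of the other 8 genes, 7 had log2 differences below 0 and 1 above. The median of all 9 was -0.075, beside a median of 0.0049 and 51.7% above 0 for all 13638 genes tested. Jag1 is part of that median and all 9 were chosen with earlier results of these data known, so nothing is read from it. Jag2 (-0.015) and Notch2 (-0.0043) are counted below 0, but kept that sign in only 13 and 14 of 19 alternatives of the processing. In a bulk sample, fewer cells of a type and less RNA per cell cannot be told apart, and this holds for each value here. Several of the 9 genes were high or low in the same animals, so their signs are not 9 separate observations.

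Whether the targets follow Jag1 was also asked within the groups, where the group difference plays no part. For each library the deviation of the log2 value from its own group mean was taken, and Jag1 was compared with the other 8 genes over the 8 libraries, with exact two-sided permutation tests that shuffle libraries within groups (576 arrangements) and Benjamini-Hochberg adjustment over the 8. For Hes1, Pearson's r was 0.10 (permutation p = 0.740, adjusted 0.740) and Spearman's rho 0.17 (permutation p = 0.583, adjusted 0.734). For Hey1, r was 0.49 (permutation p = 0.116, adjusted 0.535) and rho 0.52 (permutation p = 0.153, adjusted 0.407). For Heyl, r was 0.28 (permutation p = 0.618, adjusted 0.706) and rho 0.048 (permutation p = 0.941, adjusted 0.941). Left without control 1 and 3, the libraries farthest from the median of Jag1, r was 0.16 for Hes1, 0.55 for Hey1 and -0.094 for Heyl. None of the 3 targets followed Jag1 in a way that passed the test. In the Acot2 mKO group the deviations of Jag1 ran only from -0.080 to 0.064, and its counting error was 5.57% at the lowest reads. The counting error of Hey1 was 18.9% at the lowest. With so little spread over 8 libraries, the test could miss a target that follows Jag1, so no conclusion is drawn from it.

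Notch3 is counted here as a receptor, but it also stands on the list of Notch targets used for the pathway. The highest r with Jag1 was that of Notch3, 0.58 (permutation p = 0.196, adjusted 0.535), with a rho of 0.71 (permutation p = 0.0764, adjusted 0.407) and an r of 0.14 without control 1 and 3. The lowest was that of Jag2, -0.35 (permutation p = 0.469, adjusted 0.625), with a rho of -0.38 (permutation p = 0.427, adjusted 0.711). Dll4, Notch1 and Notch2 had r values of 0.45, 0.46 and 0.33, and no adjusted p under 0.05.

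Some of the other members varied together between animals. The r of the deviations over the 8 libraries, given here as a description, was 0.87 for Notch1 and Notch3, 0.86 for Dll4 and Notch3, 0.84 for Notch3 and Heyl, 0.79 for Dll4 and Notch1 and 0.77 for Notch1 and Heyl. These genes share their libraries and their scaling, and the same animals recur. Jag1, Dll4, Notch1, Notch2, Notch3 and Heyl, 6 of the 9, all had their lowest control value in control 3, and the same 6 had their highest Acot2 mKO value in Acot2 mKO 4. Hes1 and Hey1 followed other animals, with an r of 0.54 between them and the highest Acot2 mKO value of both in Acot2 mKO 3.

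**Figure D3:**
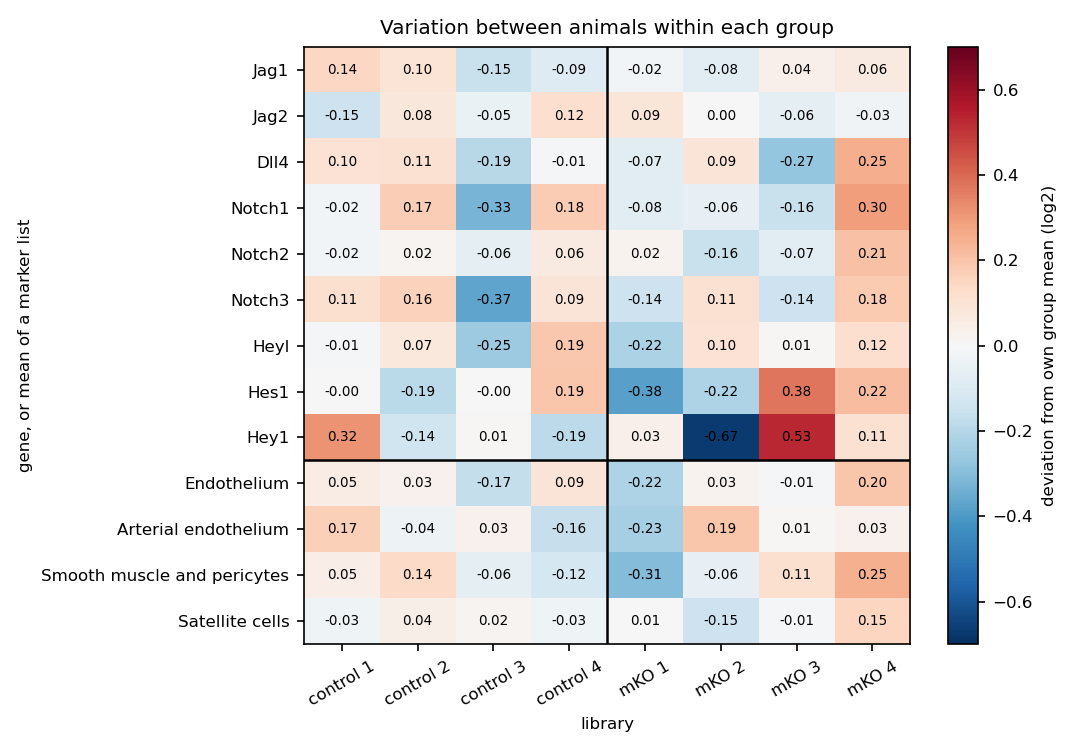
Deviation of each library from the mean of its own group (colour and printed value, log2) for the 9 Notch genes and for the mean of 4 lists of cell type markers, with libraries in columns and genes or lists in rows. Control 3 is low and Acot2 mKO 4 high for Notch1, Notch3, Dll4 and Heyl. Jag1 is also low in control 3 (-0.15) and high in Acot2 mKO 4 (0.064), with smaller deviations, but its other libraries are ordered differently.

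Marker genes of the cell types in muscle were summed in the same animals. The correlations below do not use the sums. They use, for each list, the mean over its markers of the log2 deviation from the own group mean. A sum is led by the most abundant markers, so these measures can rank the libraries differently. The 10 endothelial markers, led by Kdr, Cdh5 and Pecam1, summed to 8718, 8951, 8005 and 9207 normalized reads in control libraries and to 6979, 8328, 8187 and 9701 in Acot2 mKO libraries. Within the groups, control 3 was thus the lowest control and Acot2 mKO 4 the highest Acot2 mKO library, as for the 6 Notch genes. Acot2 mKO 4 also had the highest Acot2 mKO sum of satellite-cell, fibroblast, macrophage, Schwann-cell, fat-cell and slow-fibre markers. Control 3 also had the lowest control sum of arterial, macrophage, fast-fibre and smooth muscle and pericyte markers. The pattern is thus not particular to endothelium. Over all 54 pairs of a Notch gene and 1 of 6 marker lists, no within-group correlation passed after adjustment. The smallest p that the 576 arrangements can give is 0.00174, so a lone pair could not pass adjustment over 54, whatever its r. No conclusion is drawn from a pair that did not pass. The closest pair was Heyl and the endothelial list, with an r of 0.899 (exact permutation p = 0.00347, adjusted 0.188) and a rho of 0.79 (exact permutation p = 0.0260, adjusted 0.594). Its r was 0.50 without control 3 and Acot2 mKO 1, so it rested in part on those libraries. For Notch3 and the same list r was 0.82 (exact permutation p = 0.0191, adjusted 0.492) and rho 0.81 (exact permutation p = 0.0330, adjusted 0.594), with an r of 0.60 without those libraries. For Notch1 r was 0.78 (exact permutation p = 0.0365, adjusted 0.492) and rho 0.90 (exact permutation p = 0.0191, adjusted 0.594), with an r of 0.82 without them. For Jag1 r was 0.45 (exact permutation p = 0.257, adjusted 0.918) and rho 0.38 (exact permutation p = 0.340, adjusted 1), with an r of 0.035 without them. The list closest to Jag1 was that of smooth muscle and pericytes, with an r of 0.57 (exact permutation p = 0.0781, adjusted 0.703), a rho of 0.67 (exact permutation p = 0.0694, adjusted 0.641) and an r of 0.80 without Acot2 mKO 1 and 4. For Notch2 and the satellite-cell list r was 0.85 (exact permutation p = 0.0972, adjusted 0.75) and rho 0.55 (exact permutation p = 0.25, adjusted 0.975), and r was -0.13 without Acot2 mKO 2 and 4. For Hes1 and the slow-fibre list r was 0.88 (exact permutation p = 0.0694, adjusted 0.703) and rho 0.90 (exact permutation p = 0.118, adjusted 0.797), with an r of 0.85 without Acot2 mKO 1 and 4.

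Between the groups, the summed vascular lists and the summed satellite-cell list overlapped. For endothelial markers the sums ran from 8005 to 9207 in the controls and from 6979 to 9701 in the Acot2 mKO group, with 3 of 10 above 0 and a median log2 difference of -0.060. That median was 0.0022 with 6 of 10 above 0 without Acot2 mKO 1, and -0.13 with 0 of 10 above 0 without Acot2 mKO 4. The 7 arterial markers, with Sema3g, Efnb2 and Unc5b the highest, summed to 819 to 902 and 739 to 989, with 3 of 7 above 0 and a median of -0.013, which ran from -0.080 without Acot2 mKO 2 to 0.13 without Acot2 mKO 1 or 4. The 10 markers of smooth muscle and pericytes, led by Abcc9, Rgs5 and Myh11, summed to 33580 to 36243 and 30570 to 36074, with 3 of 10 above 0 and a median of -0.091, which was -0.011 without control 2 and -0.14 without control 3. Most of that sum is Abcc9 and Rgs5, so its overlap says little about the other markers of the list. The 4 contractile genes of the list, singled out after their values were seen, all had log2 differences below 0: Acta2 -0.22 (SE 0.19), Myh11 -0.29 (SE 0.15), Tagln -0.32 (SE 0.16) and Cnn1 -0.84 (SE 0.34), none of which passed. The rest of the list lay on both sides of 0. Rgs5 had 0.11, Kcnj8 0.072 and Pdgfrb 0.018, while Abcc9 had -0.034, Cspg4 -0.045 and Mcam -0.14. Satellite-cell markers, 6 in all with Cdh15, Spry1 and Chodl the highest, summed to 1419 to 1568 and 1519 to 1647. Of these markers 2 of 6 were above 0, with a median of -0.11, which was -0.048 without Acot2 mKO 4, -0.052 without control 1 and -0.13 without control 4. Most of that sum is Cdh15, Spry1 and Chodl, so its overlap says little about the less abundant markers. Pax7 had -0.20 (SE 0.20), Myf5 -0.32 (SE 0.27), Calcr -0.83 (SE 0.46) and Cdh15 -0.023 (SE 0.082). Chodl had 0.28 (SE 0.13) and Spry1 0.076 (SE 0.089). None of these genes passed the limma test over all genes. The part of these cells in the Jag1 difference was not tested.

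The summed lymphatic list did part the groups. The marker lists were chosen with earlier results of these data known, so no conclusion is drawn from that parting. The 5 tested lymphatic markers, among them Flt4, Lyve1 and Mmrn1, all had log2 differences above 0, with a median of 0.53, and summed to 435 to 551 in the controls and 657 to 811 in the Acot2 mKO group, while Ccl21a was at 0 in all. This is the opposite direction to Jag1, and none of the 5 passed. The 7 fat-cell markers, led by Fabp4, Cfd and Adipoq, were all below 0 with a median of -1.90, and their sums overlapped, with 2487 to 20355 in control and 2520 to 3387 in Acot2 mKO libraries. Control 2 and 3 were the highest at 20355 and 9226, and without them the median was -0.22 with 2 of 6 tested markers above 0. The log2 difference of Jag1 without the same libraries was -0.34. The part of fat and lymphatic cells in the Jag1 difference was not tested.

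Genes that varied between animals as Jag1 did were looked for among the genes with a mean of at least 100 normalized reads, by the r of the deviations from the group means over the 8 libraries. The 5 closest of 9676 were Thsd7a (r 0.963), Zfp777 (0.955), Zc2hc1a (0.948), Mical1 (0.947) and Snapc1 (0.946). Thsd7a, which encodes a membrane protein with thrombospondin repeats, had 200.1, 204, 108 and 145 normalized reads in control libraries and 141, 127, 159 and 184 in Acot2 mKO libraries. It shared with Jag1 the high values in control 1 and 2 and the low value in control 3, and its groups overlapped, with a log2 difference of -0.072 (SE 0.21). None of the other 4 had a log2 difference below 0. The 5 are the extremes of 9676 values over 8 libraries, and nothing is read from them. Of the Notch genes above the same level, Notch3 ranked 562nd and Hes1 3680th.

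The other 51 genes of the pathway were taken from lists by role. Of these, 46 had enough reads, 18 had a log2 difference above 0 and 28 below, and the median was -0.023. None passed the limma test in either direction, or limma-voom on the recovered reads, beside 0.0147% of all genes, and 3 (6.52%) had an unadjusted p under 0.05, beside 2.91% of all genes. Without Acot2 mKO 3 the split was 26 of 45 above 0 with a median of 0.0072, without Acot2 mKO 4 it was 19 of 46 with -0.021, and without both 29 of 44 with 0.029. The side on which the list lay thus changed with Acot2 mKO 3 alone.

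Of the genes that prepare ligands and receptors, 5 of 9 were above 0 and none passed. Mib1 is the ubiquitin ligase that lets a cell pull in its ligand and so activate the receptor across from it. Of the 46 genes it was the one whose groups did not overlap, beside 1.92% of all genes in either direction, a share close to 1 in 46. Mib1 was higher without overlap, as were 0.924% of all genes. It had 7296, 5811, 5965 and 6551 normalized reads in control libraries and 7476, 7746, 7323 and 7324 in Acot2 mKO libraries. Control 1 came within a small step of the Acot2 mKO libraries, and the other controls lay well below. The means were 6406 ± 674 and 7467 ± 199, a log2 difference of 0.23 (SE 0.073, 95% confidence interval 0.065 to 0.39, limma adjusted p = 0.9995), which was 0.11 without control 2 and 3. Mfng and Lfng, glycosyltransferases that tune which ligand a receptor answers to, had log2 differences of -0.59 (SE 0.27) and -0.32 (SE 0.21), and Mfng had -0.24 without control 2 and 3. Neither passed, and both had few reads, 27 to 83 for Mfng and 45 to 110 for Lfng.

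Of the 10 genes that cut the receptor, 3 were above 0. Aph1c, a subunit of gamma-secretase, had 30.2, 10.1, 33.4 and 13.0 normalized reads in control libraries and 39.6, 31.8, 37.7 and 34.7 in Acot2 mKO libraries. The groups overlapped only at control 3, and the log2 difference of 0.87 (SE 0.38, limma adjusted p = 0.9995) was 0.58 without control 2. Its near copy Aph1b had 0.059 (SE 0.11), and reads that both share may be assigned to either. The more abundant subunits Ncstn and Aph1a had -0.081 (SE 0.075) and -0.073 (SE 0.10).

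In the nuclear complex, 3 of 12 genes were above 0 and none passed. Rbpj itself had 820 ± 66.7 normalized reads in the controls and 807 ± 60.3 in Acot2 mKO libraries. Maml3, a coactivator, had a log2 difference of 0.14 (SE 0.13), and the corepressor Ncor1 had -0.082 (SE 0.078).

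Among inhibitors and turnover genes 5 of 9 lay above 0 and none passed. Dtx1, a ubiquitin ligase that is also a Notch target, had 3.36 to 20.1 normalized reads in the controls and 12.7 to 28.6 in Acot2 mKO libraries, with a log2 difference of 1.16 (SE 0.52, limma adjusted p = 0.9995) that rests on 3 to 34 reads per library. Fbxw7, which marks active Notch for breakdown, had 0.11 (SE 0.075), and the inhibitor Numb 0.11 (SE 0.083).

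Of the further targets, 6 of 8 could be tested, 3 of them above 0, and none passed. Nrarp, a feedback inhibitor that Notch induces, had 111, 144, 64.0 and 106 normalized reads in control libraries and 114, 114, 113 and 124 in Acot2 mKO libraries. Its log2 difference of 0.19 (SE 0.21) was -0.036 without control 3. Myc had 65.9 to 83.5 in control and 42.9 to 90.7 in Acot2 mKO libraries, with a log2 difference of -0.30 (SE 0.25). Hey2 was near the floor of the assay, with 3 to 17 reads per library.

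Among the remaining ligands and receptors, Dll1 had 111 to 129.8 normalized reads in the controls and 91.3 to 183 in Acot2 mKO libraries, a log2 difference of 0.17 (SE 0.21) that was 0.028 without Acot2 mKO 1. Notch4, an endothelial receptor, had 169 to 233 and 134 to 221, a log2 difference of -0.13 (SE 0.17) that was 0.016 without Acot2 mKO 1. With Notch4, all 4 receptors had log2 differences below 0, from -0.15 to -0.0043, and all 4 overlapped between the groups.

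**Figure D4:**
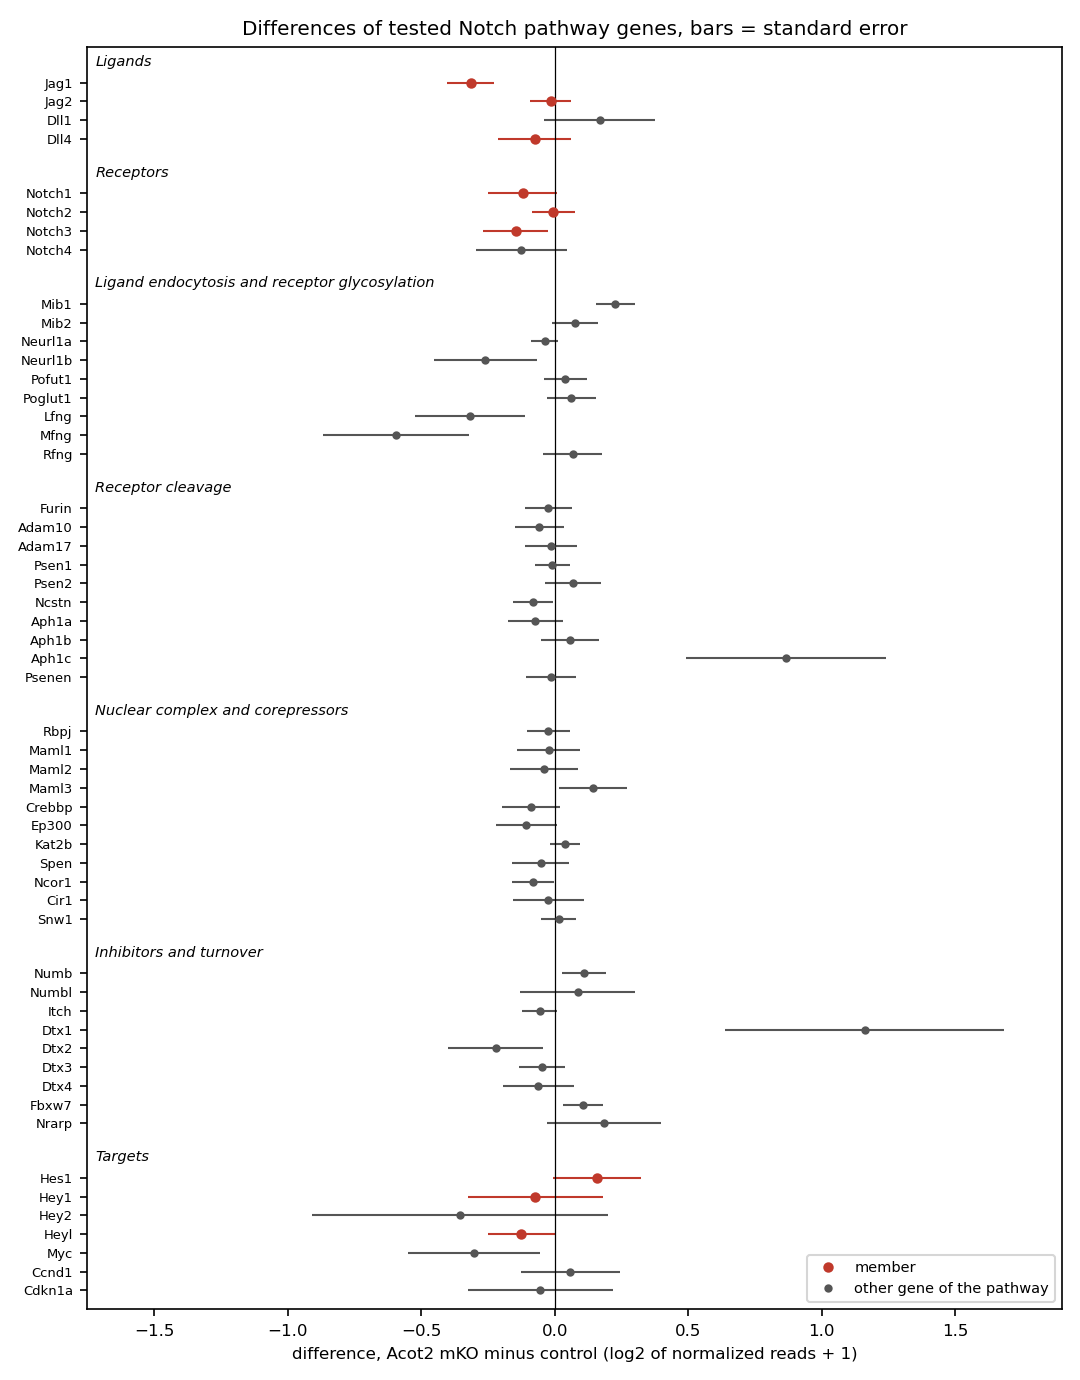
Log2 difference, Acot2 mKO minus control (horizontal axis, log2 of normalized reads + 1), of tested Notch pathway genes by role, with bars of 1 standard error, the 9 named members in red and the others in grey. Most points lie within 0.3 of 0, and the widest bars belong to genes with few reads such as Dtx1 and Hey2.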

How the data were processed

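The deposited table holds, per gene and library, log2 values that the authors made, and the values show that they are log2(x + 1), with x the read count divided by a factor per library. When the log was undone, 100% of the values below 1000 reads lay within 0.1 of whole multiples of 1 read. The submitters' processing notes name the build GRCm38 and, with no role or version, DESeq2, cutadapt, FastQC, STAR and HTSeq; the annotation and strand setting used for counting are not given in the sources used here. Genes that overlap the members held at most 25 reads in a library.

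Groups came from the genotype labels. limma 3.58.1 (R 4.3.3, trend on mean expression) was fitted to the log2 values of the 13638 genes that reached 10 normalized reads in 4 or more of the 8 libraries, with Benjamini-Hochberg adjustment, a threshold of 0.05 and 95% intervals; it was tested on simulated data. Standard errors come from that fit. limma was also run with other pseudocounts, filters, scalings and weights, and as limma-voom on recovered reads. Libraries of a group differed by a chi-square of 23.8 to 71.8 per gene, so each is its own replicate. Exon lengths and positions are from GENCODE M21 (52301 symbols matched), promoters from RefSeq.

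The members and the lists were chosen with earlier results of these data known. Genes named outside the members are those with the smallest p in each pathway list (up to 3), the 3 highest markers of a cell type list and the 5 closest to Jag1, of which 1 pathway gene is not reported here, though the list counts include it. Rbpj, Aph1b, Hey2, the ratios, the within-group correlations and the libraries compared for shared extremes were chosen after values had been seen, as were the library pairs left out. Lists of fibroblasts, macrophages and Schwann cells were computed as well; their summed levels overlapped between the groups, 26895 to 41238 against 24976 to 48245, 2416 to 3136 against 1611 to 3698, and 896 to 1494 against 742 to 1473 normalized reads. The 6 fast-fibre markers overlapped too, at 4989100 to 6016100 against 4666100 to 5710700.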

Additional observations from a re-analysis of the deposited data

Results flagged for a closer look

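Notch3 in control animals was singled out because control 3, with 926 normalized reads, lay far from the other 3 controls, which had 1275 to 1337; the gap to the nearest divided by the range of the group exceeded Dixon's 95% critical value for 4 samples. This was 1 of 20 groups examined, and chance alone picks out about 1 in 20. Control 3 also had the lowest control value of Jag1, Dll4, Notch1, Notch2 and Heyl.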

How the results depend on the processing

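The differences were recomputed under 19 alternatives, or 18 for Hey1, which has too few reads for a mean of at least 100. The log2 differences of Jag1, Notch1, Notch3 and Heyl kept their sign in 19 of 19. For Jag1, leaving libraries out could not change the sign, since every Acot2 mKO library lay below every control library. The changed filters and the replicate block return the main difference of a gene by construction. Jag2 kept it in 13, Notch2 in 14, Dll4 in 18, Hes1 in 18 and Hey1 in 16. Hes1 moved to -0.14 without Acot2 mKO 3 and 4. With each replicate left out in turn, Jag1 ran from -0.37 to -0.27, Hes1 from 0.032 to 0.28 and Hey1 from -0.25 to 0.15. The 2 genes called in the whole table and the 0 called among the other pathway genes did not change in number under any alternative, and 3 of those pathway genes had an unadjusted p under 0.05. Scaling by quantiles or by the upper quartile changed no sign among the 9 genes and put Jag1 at -0.31 in both.

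The labels give no pairs. With a replicate block of adjacent animal numbers, which the labels do not call pairs, 2 genes were called. The Jag1 difference stayed at -0.31, which a balanced block cannot change. The block did change standard errors, in both directions. With it the SE went from 0.122 to 0.080 for Notch3 and from 0.130 to 0.089 for Notch1. It went from 0.088 to 0.090 for Jag1, from 0.124 to 0.130 for Heyl and from 0.165 to 0.172 for Hes1. Genes with an unadjusted limma p under 0.05 went from 397 to 513. The deviations of adjacent animals correlated at 0.15, -0.083, 0.19 and -0.081, so the numbers were not taken to pair the samples. With 4 libraries a group and 28 to 84 reads for Hey1, its difference is the least certain of the 9.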
